A study of Homo sapiens with 54 samples.

Results

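Afatinib was compared with control treatment in 2 established human cancer cell lines that both carry high ERBB2, and the difference between the 2 responses was tested gene by gene. The comparison used 12 of the 54 libraries of the series, chosen by their labels: 3 BT-474 libraries with afatinib, 3 BT-474 control libraries, 3 NCI-N87 libraries with afatinib and 3 NCI-N87 control libraries. BT-474 is a breast cancer line and NCI-N87 a stomach cancer line. The cells of all 4 groups were grown in DMEM with fetal bovine serum. The labels call the untreated arm only "control" and give no vehicle, dose or exposure time. Whether replicates were grown apart is not recorded either, so the p-values measure the spread between libraries, which may be technical. Each line stands for its tissue by itself, so line and tissue cannot be told apart.

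HER2, the product of ERBB2, is a receptor tyrosine kinase that signals mostly as a partner of HER3 (ERBB3), and many HER2-positive breast and stomach tumours carry extra copies of its gene. Afatinib binds irreversibly to the kinase domains of EGFR, HER2 and HER4. Signals leave the receptor by the RAS, MEK and ERK cascade, which switches on feedback genes such as the DUSP phosphatases, and by the PI3K and AKT route, which holds FOXO transcription factors out of the nucleus and feeds the mTOR complex, ATF4 and the sterol regulators. Both routes promote entry into the cell cycle.

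RNA was read from the 3′ ends of transcripts, so each count marks a transcript end, and levels are given as CPM (counts scaled to a common library size) with TMM normalisation. Totals ran from 5765064 to 6228509 counts in BT-474 with afatinib, 7487141 to 8137276 in BT-474 controls, 3401565 to 5675326 in NCI-N87 with afatinib and 5106615 to 7329071 in NCI-N87 controls. The library labelled NCI-N87 control 1 stood apart from the other controls of its line. Its log2 CPM values correlated at 0.975 to 0.978 with the NCI-N87 afatinib libraries, against 0.964 and 0.957 with controls 2 and 3. Among the 974 genes whose afatinib mean lay at least 1 log2 unit from the mean of controls 2 and 3, control 1 was nearer the afatinib mean in 790 (81.1%). Mitochondrial ribosomal RNA made up 10.3, 10.3 and 4.96% of the counts in NCI-N87 with afatinib, against 8.15% in control 1 and 3.39 and 3.18% in controls 2 and 3. Control 1 also had a count for 17978 genes, against 16334 and 15777 in the other controls. The labels give no reason to prefer any of the 3 controls, so the calls of each gene list are given with all 12 libraries and again with the 11 that remain without control 1. Values of single genes are from all 12 unless the sentence says otherwise. Because control 1 was singled out by its values and lies nearer the treated libraries, leaving it out enlarges the NCI-N87 response by construction.

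The line labels matched most of their markers. The 7 luminal breast markers summed to 1809 to 1917 CPM in BT-474 with afatinib and 1448 to 1539 CPM in its controls, against 151 to 169 CPM and 157 to 208 CPM in NCI-N87. The 8 stomach and intestinal-type markers summed to 59.4 to 64.9 CPM and 55.8 to 61.4 CPM in BT-474, against 823 to 978 CPM and 641 to 785 CPM in NCI-N87. CLDN18, a tight-junction gene of stomach epithelium in that list, averaged only 0.264 CPM with afatinib and 0.187 CPM in controls of NCI-N87. The 14 mesenchymal markers summed to 216 to 220 CPM in BT-474 with afatinib, against 156 to 165 CPM in its controls. The 12 leukocyte markers summed to 4.59 to 5.74 CPM with afatinib and 1.25 to 2.74 CPM in controls of BT-474, with 7 and 4 markers at 0, and the 8 endothelial markers to 2.77 to 4.43 CPM and 4.18 to 6.23 CPM, with 4 and 5 at 0. In NCI-N87 those lists summed to 54.3 to 65.5, 7.5 to 11 and 6.17 to 7.15 CPM with afatinib, against 48.9 to 101, 4.43 to 8.62 and 5.43 to 12.2 CPM in controls. The leukocyte rise in BT-474 lay in LYZ, the lysozyme gene, which averaged 4.2 CPM with afatinib and 0.737 CPM in controls. It averaged 6.98 and 4.56 CPM in NCI-N87. The pan-leukocyte gene PTPRC averaged 0.232 CPM with afatinib and 0.423 CPM in controls of BT-474. The part of these shifts in the results was not tested. In bulk RNA, fewer cells in a state and less RNA per cell cannot be told apart.

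ERBB2 itself did not pass the test in either line. It stood at 1019, 1063 and 1190 CPM in BT-474 with afatinib, against 1140, 1170 and 1126 CPM in its controls. In NCI-N87 it stood at 1817, 2098 and 1654 CPM with afatinib, against 1610, 2192 and 1947 CPM in controls 1, 2 and 3. The treated and control ranges overlapped in both lines, and the difference between the lines was -0.02 (SE 0.17) on the log2 scale, or 0.08 (SE 0.14) without control 1. GRB7, the adaptor gene next to ERBB2, had 2378, 2969 and 1504 CPM in NCI-N87 with afatinib, against 1944 CPM in control 1 and 4059 and 4590 CPM in controls 2 and 3. Its change in NCI-N87 was -0.63 (SE 0.26) with all libraries and -0.92 (SE 0.19) without control 1, where it passed the test (adjusted p = 0.00285). EGFR was low in BT-474, at 2.6, 3.31 and 5.25 CPM with afatinib and 6.92, 3.46 and 8.71 CPM in controls, and higher in NCI-N87, at 22.4, 20.2 and 16.4 CPM with afatinib and 23.2, 31.3 and 42.2 CPM in controls 1, 2 and 3, and was called lower there without control 1 (-0.89 (SE 0.26)).

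With all 12 libraries, the response was called in BT-474 and in none of the genes of NCI-N87. Of 13946 tested genes, 1675 were higher and 1560 lower with afatinib in BT-474, which is 23.2% called at an adjusted p under 0.05 (edgeR quasi-likelihood test with Benjamini-Hochberg adjustment, used for every adjusted p here). In NCI-N87 the same fit called 0 genes (0%), while 2779 had an unadjusted p under 0.05 and DESeq2 called 222 higher and 358 lower. The difference of the responses, BT-474 minus NCI-N87, was called for 1133 genes that were more positive and 1091 that were more negative in BT-474 (15.9%). Of these 2224 genes, 1699 were also called in BT-474 and 525 in neither line by itself. Among the genes called higher in BT-474, 41.4% had a positive fold change in NCI-N87, and among those called lower, 46.5% had a negative one.

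Without control 1, a response was called in both lines. Of 14370 genes then tested, 2213 were higher and 2200 lower in BT-474 (30.7%), and 1667 were higher and 1560 lower in NCI-N87 (22.5%). Genes called in both lines were 177 higher in both (1.23%), 303 lower in both (2.11%), 380 higher in BT-474 and lower in NCI-N87 (2.64%), and 497 lower in BT-474 and higher in NCI-N87 (3.46%). The difference was called for 2000 genes in the positive and 2142 in the negative direction (28.8%). Of the 2224 differences called with all libraries, 2210 were called again (99.4% of that list and 53.4% of the longer one), and none changed sign. Fold changes of the 2 lines correlated at -0.0507 across genes with all libraries and -0.0316 without control 1, which describes these genes, since genes are not independent replicates. DESeq2 without control 1 called 1979 and 2043 genes in BT-474, 1469 and 1554 in NCI-N87, and 1919 and 1951 for the difference, with the higher genes given before the lower ones.

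**Figure D1:**
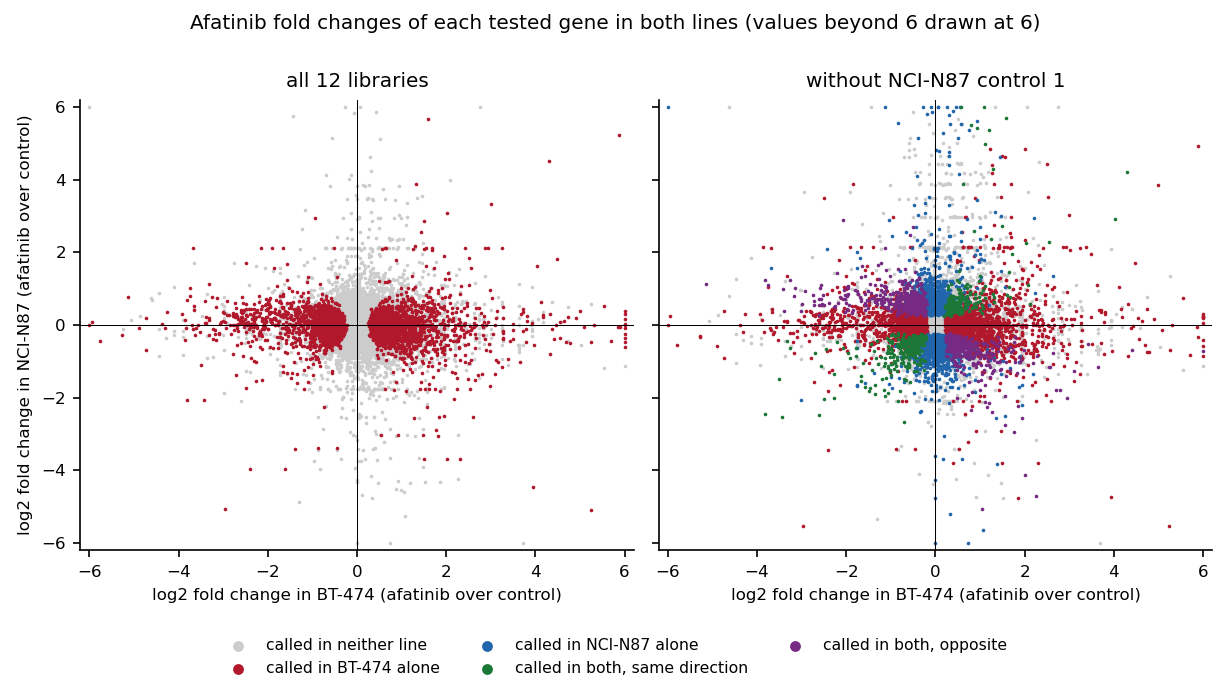
Each point is a tested gene, with its afatinib log2 fold change in BT-474 on the x axis and in NCI-N87 on the y axis, on the left with all 12 libraries and on the right without NCI-N87 control 1. Colours mark the line or lines in which the gene was called. On the left no gene is called in NCI-N87, while on the right 177 genes are called higher and 303 lower in both lines, and 877 in opposite directions.

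Genes of mitosis were lower in BT-474 with afatinib, and their change differed between the lines. All 28 listed G2/M genes that were tested were called lower in BT-474, against 11.2% of all tested genes, with a median log2 fold change of -2.61 beside 0.0377 over all genes. In NCI-N87 none was called and the median was 0.203, beside 0 over all genes. The difference was called in the negative direction for 28 of 28, against 7.82% of all genes, with a median of -2.92. Without control 1, 11 of the 28 were called higher and 1 lower in NCI-N87 (against 11.6 and 10.9% of all genes), and the difference stayed called for all 28. The list lost no BT-474 call when any one of the 12 libraries was left out.

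MKI67, the proliferation antigen Ki-67, showed the pattern by library. It stood at 36.7, 36.2 and 31.5 CPM in BT-474 with afatinib, against 136, 138 and 137 CPM in its controls. In NCI-N87 it stood at 517, 507 and 573 CPM with afatinib, against 449 CPM in control 1 and 304 and 309 CPM in controls 2 and 3. The BT-474 groups were far apart and treated was the lower one, while every treated NCI-N87 library lay above every control. The difference was -2.57 (SE 0.20), adjusted p = 1.18e-06, or -2.78 (SE 0.12) without control 1.

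CCNB1, the cyclin that activates CDK1 at mitotic entry, had 13.3, 12.7 and 10.3 CPM in BT-474 with afatinib, against 114, 108 and 106 CPM in controls. The NCI-N87 libraries had 114, 124 and 166 CPM with afatinib, against 134, 85.1 and 69.4 CPM in controls 1, 2 and 3. Afatinib and control libraries separated in BT-474 alone, since NCI-N87 control 1 lay among the treated libraries. HMMR, a spindle-associated protein, gave the most negative difference of the list, -4.54 (SE 0.35), with 2.6, 2.78 and 5.08 CPM in BT-474 with afatinib and 43.5, 49.8 and 49.5 CPM in controls. Its NCI-N87 levels were 96.2, 117 and 104 CPM with afatinib and 86.7, 51 and 47.1 CPM in controls 1, 2 and 3. AURKB and PLK1, which encode mitotic kinases, changed by -3.31 (SE 0.17) and -3.51 (SE 0.27) in BT-474 and by -0.28 (SE 0.15) and -0.19 (SE 0.21) in NCI-N87. Without control 1 AURKB was the 1 list member called lower there (-0.43 (SE 0.11), adjusted p = 0.0133).

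The promoters of 3 members of this list are printed because the short element TTTGAA, known as the cell cycle genes homology region (CHR), marks many genes expressed in G2 and M. Each is the 250 bases before the gene's start in the RefSeq table of build GRCh38.p14, read 5′ to 3′ on the gene's strand, with every match to TTTGAA on either strand in capitals. They lie at chr17:40417897-40418146 on the minus strand (TOP2A), chr10:128126424-128126673 on the minus strand (MKI67) and chr15:59104896-59105145 on the plus strand (CCNB2).
TOP2A: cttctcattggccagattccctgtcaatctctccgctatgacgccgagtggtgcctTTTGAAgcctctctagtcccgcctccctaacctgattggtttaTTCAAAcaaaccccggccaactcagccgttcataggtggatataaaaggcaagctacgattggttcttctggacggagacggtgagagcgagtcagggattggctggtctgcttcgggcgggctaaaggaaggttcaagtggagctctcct
MKI67: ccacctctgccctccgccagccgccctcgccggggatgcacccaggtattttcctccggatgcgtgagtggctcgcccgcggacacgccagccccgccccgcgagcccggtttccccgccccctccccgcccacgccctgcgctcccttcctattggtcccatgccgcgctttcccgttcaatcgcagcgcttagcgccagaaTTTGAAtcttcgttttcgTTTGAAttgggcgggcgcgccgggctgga
CCNB2: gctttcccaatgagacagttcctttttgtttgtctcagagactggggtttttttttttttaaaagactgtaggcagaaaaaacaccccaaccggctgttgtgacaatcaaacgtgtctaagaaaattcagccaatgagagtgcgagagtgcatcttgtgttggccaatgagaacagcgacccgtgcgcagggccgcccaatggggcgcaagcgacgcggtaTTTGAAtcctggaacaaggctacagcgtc
The element occurred in 14 of the 23 tested list genes found in the promoter table, against 16.1% of all 27305 genes there and 13.3% of all 35116 promoters of that length. The general promoter element CCAAT occurred in 18 of the 23, against 37.0% of all genes. The nearest TTTGAA to the start began 29 bases before it in MKI67 and in CCNB2 and 151 bases before it in TOP2A. A match describes these letters and is no evidence of binding. TOP2A and CCNB2 changed by -2.60 (SE 0.10) and -2.48 (SE 0.14) in BT-474 and by 0.14 (SE 0.09) and -0.20 (SE 0.12) in NCI-N87.

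Genes of DNA replication followed the mitotic genes. In BT-474, 30 of 31 tested G1/S genes were called lower (against 11.2% of all genes), with a median of -1.93. None was called in NCI-N87, where the median was 0.206. The difference was called negative for 30 of 31 (against 7.82% of all genes). Without control 1, 30 were again called lower in BT-474 (against 15.3% of all genes). In NCI-N87 10 were then higher and 1 lower (against 11.6 and 10.9% of all genes). The difference was called negative for all 31 (against 14.9% of all genes). MCM2, a subunit of the replicative helicase, had 66.5, 71.2 and 61.5 CPM in BT-474 with afatinib, against 193, 189 and 188 CPM in controls. In NCI-N87 it had 214, 224 and 243 CPM with afatinib and 245, 218 and 211 CPM in controls 1, 2 and 3, and those groups overlapped. Its difference was -1.53 (SE 0.13) with all libraries and -1.61 (SE 0.12) without control 1. CLSPN, the replication checkpoint mediator claspin, is on neither cell cycle list and was named for its opposite calls without control 1. It had 22.2, 20.4 and 23.8 CPM in BT-474 with afatinib, against 106, 96.4 and 102 CPM in controls. NCI-N87 cells had 111, 101 and 141 CPM with afatinib, against 117 CPM in control 1 and 45.9 and 41.2 CPM in controls 2 and 3. Without control 1 it was called lower in BT-474 (-2.20 (SE 0.12)) and higher in NCI-N87 (1.43 (SE 0.13)), but control 1 lay at the treated level.

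PRR11, a cell cycle gene outside both lists, had a difference of nearly the same size with and without control 1. Its levels were 35.5, 31.8 and 31.6 CPM in BT-474 with afatinib and 688, 675 and 702 CPM in controls, and 129, 115 and 138 CPM in NCI-N87 with afatinib and 120.1, 128 and 126 CPM in controls 1, 2 and 3. The 6 NCI-N87 values overlapped and the BT-474 groups did not. The difference was -4.41 (SE 0.13), adjusted p = 2.38e-10, and -4.39 (SE 0.13) without control 1. FAM111B, a protease linked to replication, gave the most negative difference among the 10 of the 12 lowest named genes that had more than 3 counts in every group, -5.91 (SE 0.37). It had 3.81, 3.13 and 5.41 CPM in BT-474 with afatinib and 148, 133 and 156 CPM in controls, and 145, 128 and 99 CPM in NCI-N87 with afatinib and 104, 50.4 and 63.8 CPM in controls 1, 2 and 3. NUF2, of the kinetochore, changed by -3.86 (SE 0.17) in BT-474 and 0.14 (SE 0.14) in NCI-N87, where it did not pass the test.

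Among the inhibitors of cyclin-dependent kinases and the D cyclins, 2 of 15 tested genes were called higher and 3 lower in BT-474. That is 33.3% of the list, against 23.2% of all genes. The difference was called for 1 in the positive and 2 in the negative direction (20% of the list, against 15.9% of all genes). Without control 1, 3 were higher and 4 lower in BT-474 (46.7% of the list, against 30.7% of all genes). In NCI-N87 2 were then higher and 1 lower (20%, against 22.5%). In that fit 1 difference was positive and 4 were negative (33.3%, against 28.8%). CDKN1C, which encodes the inhibitor p57, was the gene with the positive difference, 2.32 (SE 0.33). It had 52, 53.9 and 50.5 CPM in BT-474 with afatinib, against 12.8, 10.9 and 15 CPM in controls. NCI-N87 had 18.6, 16.9 and 11.3 CPM with afatinib and 14.1, 16.5 and 27.9 CPM in controls 1, 2 and 3, and those ranges overlapped. CDKN1B, which encodes p27, did not pass the test in either line, at -0.20 (SE 0.10) in BT-474 and -0.07 (SE 0.11) in NCI-N87. CCND1, the cyclin D1 gene, had 289, 307 and 318 CPM in BT-474 with afatinib, against 357, 404 and 401 CPM in controls. Its NCI-N87 levels were 252, 243 and 238 CPM with afatinib, against 219.7, 209 and 234 CPM in controls. The afatinib values lay below all controls in BT-474 and above all controls in NCI-N87, with a difference of -0.49 (SE 0.12), adjusted p = 0.0162.

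**Figure D2:**
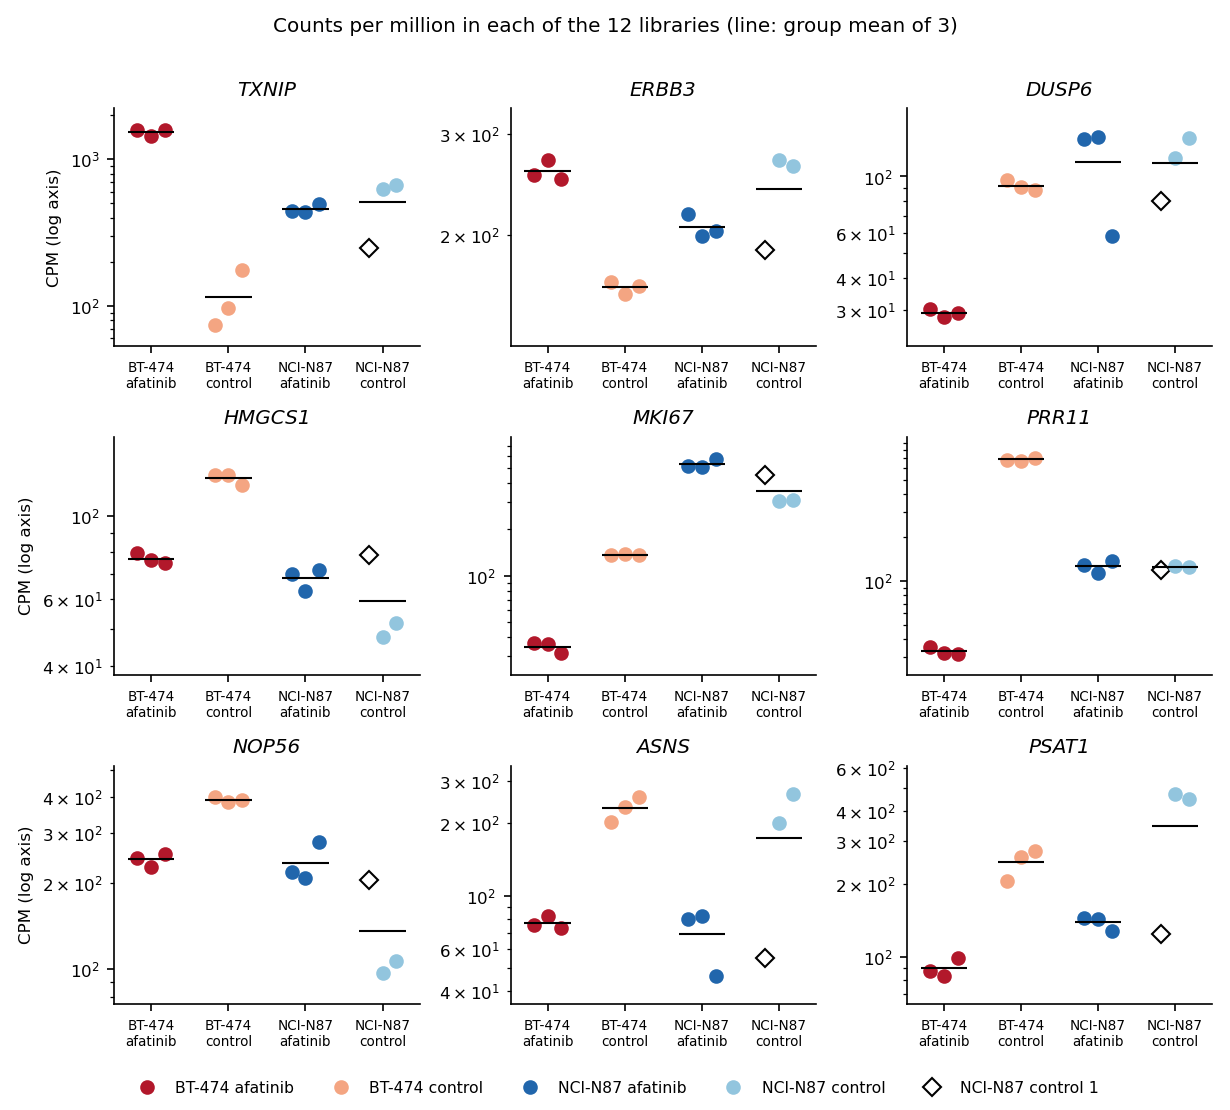
CPM of 9 genes in each of the 12 libraries, on log axes, with a line at the mean of each group of 3 and an open diamond for NCI-N87 control 1. TXNIP and ERBB3 are higher and DUSP6, HMGCS1, MKI67 and PRR11 lower with afatinib in BT-474, while for NOP56, ASNS and PSAT1 the open diamond lies with the treated NCI-N87 libraries, apart from controls 2 and 3.

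Most genes of a list of receptor, insulin feedback and FOXO-related genes rose in BT-474. The list also holds FOXO1, FOXO3 and FOXO4 themselves, and FOXO activity was not measured. Of 24 tested genes of this list, 15 were called higher and 0 lower in BT-474, against 12% of all genes called higher, and 13 had a positive difference, against 8.12% of all genes. The list medians were 0.649 in BT-474, -0.153 in NCI-N87 and 0.636 for the difference. Members that did not pass the test in BT-474 included CCNG2 (0.16 (SE 0.13)), INSR (0.28 (SE 0.35)), RICTOR (-0.06 (SE 0.15)) and KLF9 (-0.43 (SE 0.22)). Without control 1, 16 were called higher in BT-474 (against 15.4% of all genes), while 2 were higher and 6 lower in NCI-N87 (11.6 and 10.9%). In that fit 14 differences were positive and 1 negative (against 13.9 and 14.9% of all genes).

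ERBB3, which encodes the HER2 partner HER3, had 254, 269 and 250.4 CPM in BT-474 with afatinib, against 166, 158 and 163 CPM in controls. The NCI-N87 libraries had 217, 199 and 203 CPM with afatinib, against 188 CPM in control 1 and 269 and 263 CPM in controls 2 and 3. Treated BT-474 libraries lay above all controls, while in NCI-N87 they lay between control 1 and the other controls. The difference was 0.89 (SE 0.17), adjusted p = 0.00327, and 1.03 (SE 0.10) without control 1, where the NCI-N87 change was also called, at -0.37 (SE 0.08).

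IRS1, the adaptor of the insulin receptor, had 91.2, 84.4 and 84.1 CPM in BT-474 with afatinib, against 46.8, 45.7 and 54.5 CPM in controls, and 25.4, 24.4 and 18.8 CPM in NCI-N87 with afatinib, against 24.9, 26.6 and 27 CPM in controls. Its difference, 1.01 (SE 0.17), was nearly the same without control 1, 1.02 (SE 0.17). FOXO1 itself changed by 1.40 (SE 0.25) in BT-474 and -0.36 (SE 0.22) in NCI-N87, and FOXO4 by 1.35 (SE 0.20) and -0.39 (SE 0.18). IGF1R, the receptor of insulin-like growth factor, changed by 0.98 (SE 0.10) and 0.12 (SE 0.12), with a difference of 0.86 (SE 0.16). PIK3IP1, an inhibitor of PI3-kinase, had 32.2, 27.1 and 34.6 CPM in BT-474 with afatinib, against 12.1, 12 and 12.2 CPM in controls, and 7.73, 8.9 and 2.68 CPM in NCI-N87 with afatinib, against 4.12, 11.5 and 10.7 CPM in controls. YPEL3, a growth suppressor, and MXI1, an antagonist of MYC, changed by 1.26 (SE 0.24) and 1.17 (SE 0.13) in BT-474 and by -0.64 (SE 0.23) and -0.48 (SE 0.12) in NCI-N87.

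TXNIP, which encodes a thioredoxin-binding protein that limits glucose uptake, had the largest positive difference of the list. It reached 1596, 1438 and 1584 CPM in BT-474 with afatinib, against 74.2, 96.3 and 177 CPM in controls. In NCI-N87 it had 447, 435 and 495 CPM with afatinib, against 249 CPM in control 1 and 624 and 673 CPM in controls 2 and 3. The change was 3.73 (SE 0.35) in BT-474, the NCI-N87 libraries overlapped, and the difference was 3.90 (SE 0.46), adjusted p = 8.42e-05. SESN1 and SESN3, stress-induced sestrins, had a different pattern: SESN3 was called higher in both lines without control 1, by 0.78 (SE 0.24) in BT-474 and 1.07 (SE 0.25) in NCI-N87, and SESN1 in NCI-N87, by 1.04 (SE 0.18), with 0.08 (SE 0.15) in BT-474.

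The ligands of EGFR were led by AREG, which encodes amphiregulin. It had 181, 196 and 212 CPM in BT-474 with afatinib, against 138, 109 and 108 CPM in controls, and the treated libraries lay above the controls. NCI-N87 cells had 46, 39.95 and 29.8 CPM with afatinib, against 47.6 CPM in control 1 and 161 and 136 CPM in controls 2 and 3. With all libraries neither line passed the test (adjusted p = 0.0944 and 0.0792), but the difference did, at 2.30 (SE 0.44), adjusted p = 0.00366. Without control 1 AREG was called higher in BT-474 and lower in NCI-N87, with a difference of 2.65 (SE 0.20). Of the 12 tested receptor and ligand genes, ERBB3 and AREG were the 2 with a called difference (16.7%, against 15.9% of all genes). Without control 1, 2 of the 12 were higher in BT-474 (against 15.4% of all genes) and 4 were lower in NCI-N87 (10.9%). HBEGF became the third with a called difference, at 1.31 (SE 0.44), which makes 25% of the list, against 28.8% of all genes.

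Some feedback targets of ERK fell in BT-474. Of 24 tested genes of this list, 8 were called lower and 2 higher in BT-474 (against 11.2 and 12% of all genes), with a median of -0.438. The difference was called negative for 5 and positive for 0 (against 7.82 and 8.12% of all genes). The NCI-N87 median was -0.115. Without control 1, 10 were lower and 2 higher in BT-474 (against 15.3 and 15.4% of all genes). The difference was then called negative for 6 and positive for 4 (against 14.9 and 13.9% of all genes). One of the 4 was PLAUR, the urokinase receptor gene, which had 24.5, 30 and 14.5 CPM in NCI-N87 with afatinib, against 19.7 CPM in control 1 and 66.5 and 88.8 CPM in controls 2 and 3, and a difference of 2.05 (SE 0.41) without control 1. In NCI-N87 8 were lower and 1 higher without control 1 (against 10.9 and 11.6% of all genes). Of the 24 genes, 3 were lower in both lines (against 2.11% of all genes). Among them was ETV5, at -0.66 (SE 0.19) in BT-474 and -0.90 (SE 0.16) in NCI-N87.

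DUSP6, the phosphatase of ERK, had 30.1, 28 and 29 CPM in BT-474 with afatinib, against 97.1, 91 and 88.2 CPM in controls. Its NCI-N87 levels were 141, 142 and 58.5 CPM with afatinib, against 79.8, 119 and 141 CPM in controls 1, 2 and 3. The third treated NCI-N87 library was the lowest of its line and also the shallowest of the 12, and the other 2 lay close to control 3, the highest control. The difference was -1.68 (SE 0.38), adjusted p = 0.00983, or -1.50 (SE 0.35) without control 1. DUSP4, a nuclear ERK phosphatase, had 59.2, 58.5 and 79.7 CPM in BT-474 with afatinib, against 193, 203 and 202 CPM in controls, and 14.7, 12.6 and 9.39 CPM in NCI-N87 with afatinib, against 9.18, 15.6 and 12.6 CPM in controls. SPRED1, an inhibitor of RAS signalling, and SPRY4, a Sprouty protein with a like role, changed by -0.93 (SE 0.18) and -1.25 (SE 0.34) in BT-474 and by -0.08 (SE 0.15) and -0.01 (SE 0.27) in NCI-N87. The difference of SPRY4 passed the test only without control 1 (-1.30 (SE 0.46), adjusted p = 0.0468). Of 18 tested immediate early genes, which growth signals switch on within minutes, 7 were called lower and 1 higher in BT-474 (against 11.2 and 12% of all genes). The difference was positive for 1 and negative for 1, which is 11.1% of the list, against 15.9% of all genes. Without control 1, 8 were lower and 1 higher in BT-474 (against 15.3 and 15.4% of all genes). In NCI-N87 6 were then lower (10.9%), and 3 were lower in both lines (2.11%). In that fit 2 differences went each way, which is 22.2% of the list, against 28.8% of all genes. JUN, a subunit of the AP-1 factor and a member of that list, changed by -1.29 (SE 0.12) in BT-474 and 0.40 (SE 0.12) in NCI-N87, and its difference was -1.69 (SE 0.17). PHLDA1 and EPHA4 were the 2 MEK and ERK output genes called higher in BT-474, by 0.54 (SE 0.16) and 1.25 (SE 0.30).

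Many genes of sterol and fatty acid synthesis fell in BT-474. Of 31 tested genes, 16 were called lower and 2 higher there (against 11.2 and 12% of all genes), with a median of -0.528. The difference was negative for 11 and positive for 2 (against 7.82 and 8.12% of all genes). The NCI-N87 median was -0.0715. Without control 1, 19 were lower and 2 higher in BT-474 (against 15.3 and 15.4% of all genes). In NCI-N87 3 were then higher and 3 lower, which is 19.4% of the list, against 22.5% of all genes. In that fit 14 differences were negative and 2 positive (against 14.9 and 13.9% of all genes).

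HMGCS1, the enzyme that makes HMG-CoA for sterol synthesis, had 79.8, 76.2 and 74.8 CPM in BT-474 with afatinib, against 128, 128 and 121 CPM in controls. The NCI-N87 libraries had 70.1, 63.1 and 71.6 CPM with afatinib, against 78.8 CPM in control 1 and 47.6 and 52 CPM in controls 2 and 3, and the gene was called higher there without control 1 (adjusted p = 0.00328). SCD, the desaturase that makes oleate, changed by -1.60 (SE 0.25) in BT-474 and had a difference of -1.12 (SE 0.34). EBP and FADS2, a sterol isomerase and a fatty acid desaturase, had differences of -0.97 (SE 0.19) and -1.14 (SE 0.34). The 2 genes with the opposite sign were TM7SF2, a sterol reductase, and ACSS2, an acetyl-CoA synthetase, with differences of 0.84 (SE 0.16) and 0.85 (SE 0.24).

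Of 24 tested glycolytic and hypoxia genes, 12 were called lower and 1 higher in BT-474 (against 11.2 and 12% of all genes). The difference was called negative for 3 and positive for 0, which is 12.5% of the list, against 15.9% of all genes. Without control 1, 13 were lower and 2 higher in BT-474 (against 15.3 and 15.4% of all genes), and 7 were lower in NCI-N87 (10.9%). In that fit 6 differences were negative and 3 positive, which is 37.5% of the list, against 28.8% of all genes. LDHA, lactate dehydrogenase A, was one of the 3 with a negative difference when all libraries were used. It had 65.3, 95.2 and 63.6 CPM in BT-474 with afatinib, against 259, 221 and 258 CPM in controls, and 161, 151 and 159 CPM in NCI-N87 with afatinib, against 203, 188 and 205 CPM in controls. Treated libraries lay below all controls in both lines. The changes were -1.72 (SE 0.14) in BT-474 and -0.34 (SE 0.13) in NCI-N87, where the test was not passed (adjusted p = 0.187). PGK1, phosphoglycerate kinase, had 149.9, 133 and 134 CPM in NCI-N87 with afatinib, against 199.7, 191 and 208 CPM in controls 1, 2 and 3. It was one of the genes in which control 1 lay with the other controls, and it was called lower in both lines without control 1, by -0.76 (SE 0.08) in BT-474 and -0.52 (SE 0.09) in NCI-N87. In all, 6 genes of the list were called lower in both lines without control 1 (against 2.11% of all genes).

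For 10 of 24 tested ribosome biogenesis genes the difference was called, in each case negative (against 7.82% of all genes). With all libraries, 6 of the 24 were called lower and 0 higher in BT-474, which is 25% of the list, against 23.2% of all genes called there. None was called in NCI-N87, and the medians were -0.373 in BT-474 and 0.387 in NCI-N87. Without control 1, 12 were lower in BT-474 (against 15.3% of all genes), 16 were higher in NCI-N87 (11.6%) and 17 had a negative difference (14.9%). NOP56, a core protein of small nucleolar particles, had 246, 228 and 254 CPM in BT-474 with afatinib, against 400.2, 386 and 391 CPM in controls. In NCI-N87 it had 219, 209 and 279.8 CPM with afatinib, against 205 CPM in control 1 and 97.4 and 107 CPM in controls 2 and 3. Control 1 therefore stood with the treated libraries, and the NCI-N87 change was 0.79 (SE 0.22) with it and was called only without it (adjusted p = 1.49e-05). NCL, the nucleolar protein nucleolin, had 1936, 1889 and 2333 CPM in NCI-N87 with afatinib, against 1921 CPM in control 1 and 653 and 745 CPM in controls 2 and 3, and its difference was -1.57 (SE 0.42). The mean of the list over controls 2 and 3 set at 0, the treated NCI-N87 libraries stood at 0.49, 0.53 and 0.80 log2 units and control 1 at 0.59, while treated BT-474 libraries stood at -0.29, -0.34 and -0.40 on the same scale.

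**Figure D3:**
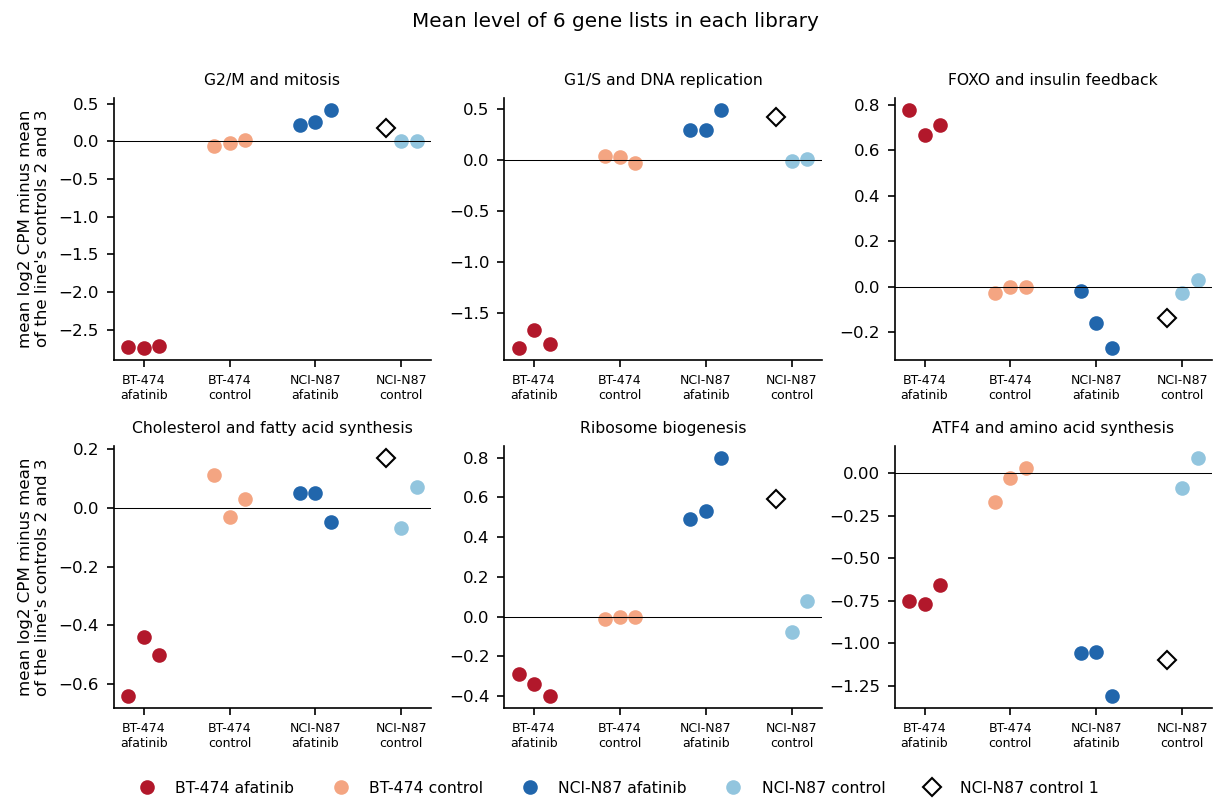
Mean log2 CPM of the tested genes of 6 lists in each library, minus the mean of controls 2 and 3 of the same line, with an open diamond for NCI-N87 control 1. For G2/M genes the treated BT-474 libraries lie between -2.74 and -2.72, and for the ATF4 list control 1 lies at -1.10, beside -1.06, -1.05 and -1.31 in treated NCI-N87 libraries.

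Most listed targets of ATF4, among them genes that make and import amino acids, were lower with afatinib in BT-474, and in NCI-N87 they were called lower by edgeR once control 1 was left out. ATF4 is a transcription factor of the integrated stress response and of mTOR signalling. With all libraries, 14 of 27 tested genes were called lower and 1 higher in BT-474 (against 11.2 and 12% of all genes), with a median of -0.694. The NCI-N87 median was -0.812 with 0 called. The difference was called for 1 gene (3.70%, against 15.9% of all genes). Without control 1, 21 were lower in BT-474 (against 15.3% of all genes), 23 were lower in NCI-N87 (10.9%) and 20 in both lines (2.11%), with medians of -0.704 and -1.07. The difference was then called positive for 9 and negative for 1 of the 27 (37% of the list, against 28.8% of all genes). With all 12 libraries DESeq2 called 17 of the 27 lower in NCI-N87, as did edgeR when all 14 groups of the second set shared one fit.

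ASNS, asparagine synthetase, had 75.7, 82.3 and 73.5 CPM in BT-474 with afatinib, against 203, 234 and 256 CPM in controls. NCI-N87 cells had 79.7, 82 and 46.4 CPM with afatinib, against 55.1 CPM in control 1 and 199.6 and 264 CPM in controls 2 and 3. Treated libraries lay below all controls in BT-474, while in NCI-N87 control 1 lay at the treated level. Without control 1 the changes were -1.59 (SE 0.17) and -1.72 (SE 0.18), and the difference, 0.13 (SE 0.25), did not pass the test (adjusted p = 0.738). PSAT1, which makes phosphoserine on the way to serine, had 87.8, 83.7 and 98.7 CPM in BT-474 with afatinib, against 206, 258 and 272 CPM in controls. Its NCI-N87 levels were 145, 144 and 128 CPM with afatinib, against 124 CPM in control 1 and 470.3 and 449 CPM in controls 2 and 3. Its changes without control 1 were -1.46 (SE 0.11) and -1.73 (SE 0.11).

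PCK2, the mitochondrial PEP carboxykinase, had 79.8, 72.9 and 61 CPM in BT-474 with afatinib, against 182, 204 and 208 CPM in controls, and 27.2, 21.6 and 19.1 CPM in NCI-N87 with afatinib, against 23.2 CPM in control 1 and 81.6 and 80.2 CPM in controls 2 and 3. GPT2, a mitochondrial alanine transaminase, changed by -1.11 (SE 0.13) and -1.47 (SE 0.14) without control 1, and SHMT2, which makes glycine and one-carbon units in mitochondria, by -1.06 (SE 0.10) and -1.19 (SE 0.10). SLC7A11, the cystine importer, changed by -1.62 (SE 0.19) and -1.04 (SE 0.16) without control 1. For these 3 genes the difference between the lines did not pass the test in either fit. Members that fell further in NCI-N87 without control 1 were CHAC1, a glutathione-degrading enzyme, DDIT4, an inhibitor of mTOR complex 1, and TRIB3, a pseudokinase. Without control 1 their differences were 1.98 (SE 0.20), 1.26 (SE 0.25) and 0.84 (SE 0.15), and with all libraries none of the 3 passed (1.55 (SE 0.60), 0.89 (SE 0.49) and 0.45 (SE 0.50)). CHAC1 had 12.5, 11 and 8.85 CPM in NCI-N87 with afatinib, against 12.7 CPM in control 1 and 67.7 and 72 CPM in controls 2 and 3. ATF5, a related factor, was the gene whose difference was called with all libraries, at -1.15 (SE 0.31). STC2, a secreted stanniocalcin, was the gene called higher in BT-474 (0.85 (SE 0.13)).

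The promoters of ASNS and CHAC1 are shown because both hold the 8-base element TGATGNAA, the composite element through which ATF4 and C/EBP proteins act. Each is again the 250 bases before the gene's start in the RefSeq table of build GRCh38.p14, at chr7:97872409-97872658 on the minus strand and chr15:40953221-40953470 on the plus strand, with the match on either strand in capitals. ASNS has 2 starts in the table, of which 1 holds the element.
ASNS: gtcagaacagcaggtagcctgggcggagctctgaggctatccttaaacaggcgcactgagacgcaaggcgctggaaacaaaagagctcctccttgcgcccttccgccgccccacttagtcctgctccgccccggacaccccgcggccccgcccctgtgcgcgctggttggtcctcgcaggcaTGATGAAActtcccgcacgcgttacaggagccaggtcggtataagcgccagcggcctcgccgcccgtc
CHAC1: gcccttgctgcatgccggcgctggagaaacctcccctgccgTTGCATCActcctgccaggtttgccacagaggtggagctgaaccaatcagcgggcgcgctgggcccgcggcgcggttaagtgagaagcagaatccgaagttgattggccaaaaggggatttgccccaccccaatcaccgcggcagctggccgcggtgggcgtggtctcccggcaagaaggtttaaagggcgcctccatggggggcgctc
The match began 68 bases before the start in ASNS and 209 bases before it in CHAC1, where it lies on the opposite strand. It occurred in 3 of the 21 tested list genes found in the promoter table, against 3.89% of all genes. A promoter without a match says only that these letters are not in the 250 bases searched.

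Outside that list, the genes lower in both lines with the largest smaller change were led by S100P, a calcium-binding protein of epithelial tumours. It had 1.73, 2.09 and 1.15 CPM in BT-474 with afatinib, against 18.9, 17.4 and 17.3 CPM in controls. The NCI-N87 libraries had 148, 119 and 96.9 CPM with afatinib, against 125 CPM in control 1 and 692 and 726 CPM in controls 2 and 3. Both lines changed without control 1, by -3.43 (SE 0.25) and -2.54 (SE 0.13), and the difference was then called (-0.89 (SE 0.31)). In the same fit ANO1, a chloride channel, changed by -1.35 (SE 0.19) and -1.90 (SE 0.28), and CDKN1A, which encodes the inhibitor p21, by -1.06 (SE 0.25) and -1.12 (SE 0.19). PIH1D1, of a chaperone complex, had 65.1, 77.8 and 50.4 CPM in NCI-N87 with afatinib, against 97.6 CPM in control 1 and 157 and 207 CPM in controls 2 and 3. There control 1 lay between the treated libraries and the other controls, and the changes without it were -1.19 (SE 0.15) and -1.48 (SE 0.16).

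Among the genes higher in both lines, JAG1, a ligand of Notch receptors, had 17.8, 22.3 and 15.2 CPM in BT-474 with afatinib, against 3.89, 6.92 and 6.26 CPM in controls, and 46.7, 49.4 and 46.1 CPM in NCI-N87 with afatinib, against 39.1, 28.6 and 27.1 CPM in controls 1, 2 and 3. Treated libraries lay above all controls in both lines even with control 1, although the NCI-N87 change passed the test only without it (0.77 (SE 0.17), adjusted p = 0.0053). PIK3R1, the regulatory subunit of PI3-kinase, changed by 0.67 (SE 0.14) and 1.07 (SE 0.15) without control 1, and INADL, a scaffold of tight junctions, by 0.68 (SE 0.09) and 0.72 (SE 0.10). SLC39A10, a zinc importer, changed by 0.79 (SE 0.13) and 0.90 (SE 0.15) in the same fit. BCL2L11, which encodes the pro-apoptotic protein BIM, had 49.5, 42.5 and 49.7 CPM in BT-474 with afatinib, against 30.8, 31 and 30.6 CPM in controls, and 23.5, 22.3 and 22.5 CPM in NCI-N87 with afatinib, against 22.9, 17.8 and 9.67 CPM in controls 1, 2 and 3. It was called higher in BT-474 with all libraries (0.62 (SE 0.20)) and in both lines without control 1. CDK12, a transcriptional kinase beside ERBB2, and CDK6, a G1 kinase, were called higher in both lines only without control 1, by 0.35 (SE 0.07) and 0.40 (SE 0.10) in BT-474 and 0.41 (SE 0.08) and 0.50 (SE 0.10) in NCI-N87. With all libraries both were called higher in BT-474, and their NCI-N87 changes, 0.23 (SE 0.12) and 0.37 (SE 0.12), did not pass the test (adjusted p = 0.289 and 0.135). Of the 177 genes higher in both lines, 152 had no called difference, and of the 303 lower in both, 257 had none, which does not show that the changes were equal.

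**Figure D4:**
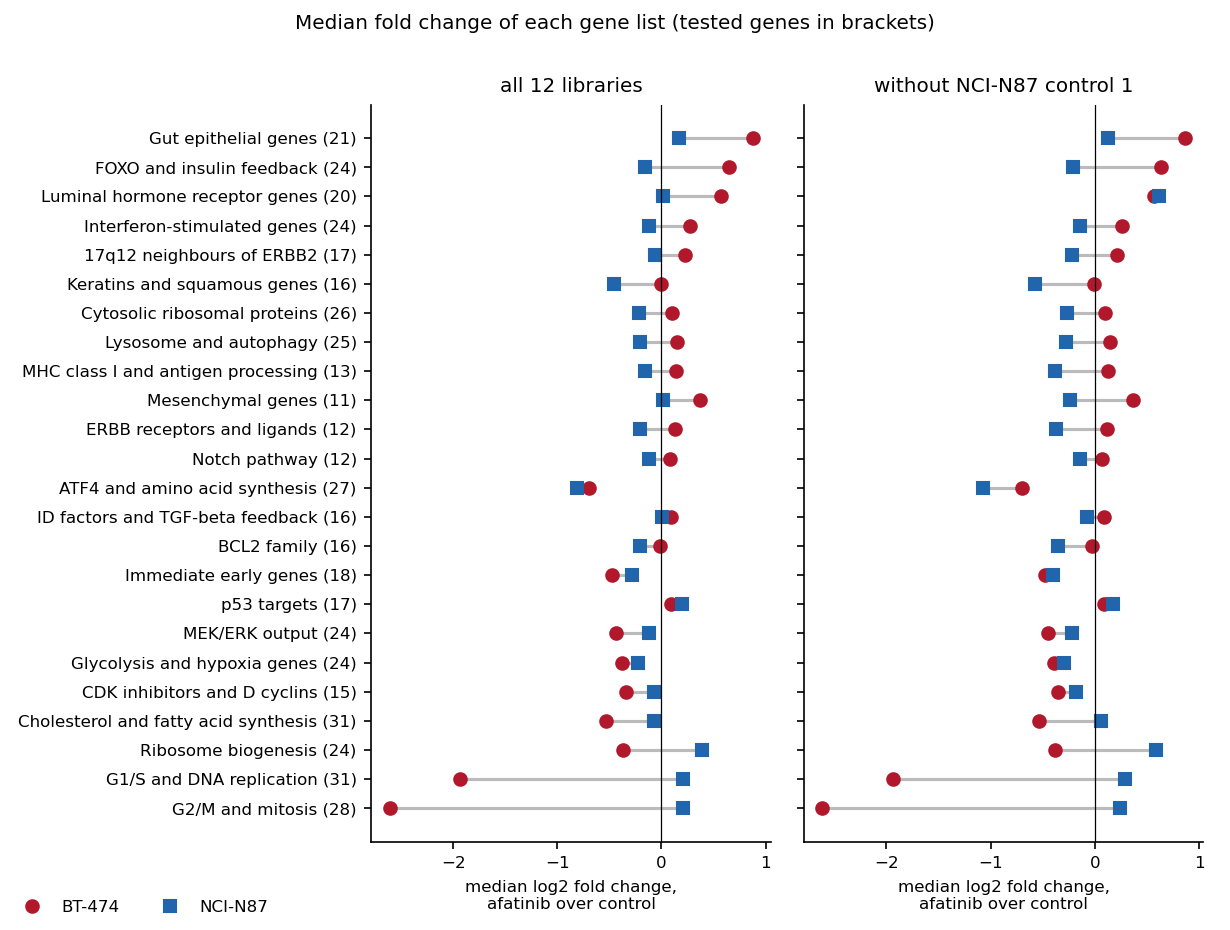
Median log2 fold change, afatinib over control, of the tested genes of each list with at least 10 of them, for BT-474 (circles) and NCI-N87 (squares), on the left with all 12 libraries and on the right without NCI-N87 control 1. The G2/M list lies at -2.61 in BT-474 and 0.203 in NCI-N87, and the ATF4 list is below 0 in both lines in both panels.

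With all 12 libraries, 0 genes were called in opposite directions by edgeR, none being called in NCI-N87, and 82 were by DESeq2. The largest of the 877 called without control 1 were UCA1, a long noncoding RNA of carcinomas, TCEA2, an elongation factor, MLPH, a melanosome transport protein, and TMEM139 in one orientation. UCA1 had 30.8, 26.4 and 19.8 CPM in BT-474 with afatinib, against 2.45, 3.04 and 3.27 CPM in controls, and 17.5, 14 and 8.59 CPM in NCI-N87 with afatinib, against 13.3 CPM in control 1 and 29.4 and 36.7 CPM in controls 2 and 3. Its difference was called in both fits, at 4.10 (SE 0.49) with all libraries and 4.39 (SE 0.35) without control 1. MLPH had 311, 274 and 252 CPM in BT-474 with afatinib, against 125, 126 and 129 CPM in controls, and changed by -1.10 (SE 0.17) in NCI-N87 without control 1. MUC1, a membrane mucin, had the same orientation, with a difference of 2.08 (SE 0.36).

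In the other orientation stood CLSPN, DLGAP5, a spindle protein, HIST1H1C, a linker histone, and RNR1, the mitochondrial 12S ribosomal RNA. RNR1 had 7828, 6572 and 9504 CPM in BT-474 with afatinib, against 15248, 21574 and 17978 CPM in controls. In NCI-N87 it had 11085, 12113 and 6471 CPM with afatinib, against 12649 CPM in control 1 and 3170 and 2931 CPM in controls 2 and 3. Its difference did not pass the test with all libraries (-1.86 (SE 0.62), adjusted p = 0.0558) and did so without control 1 (-2.90 (SE 0.31)). DLGAP5 had differences of -4.02 (SE 0.39) with all libraries and -4.49 (SE 0.19) without control 1.

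**Figure D5:**
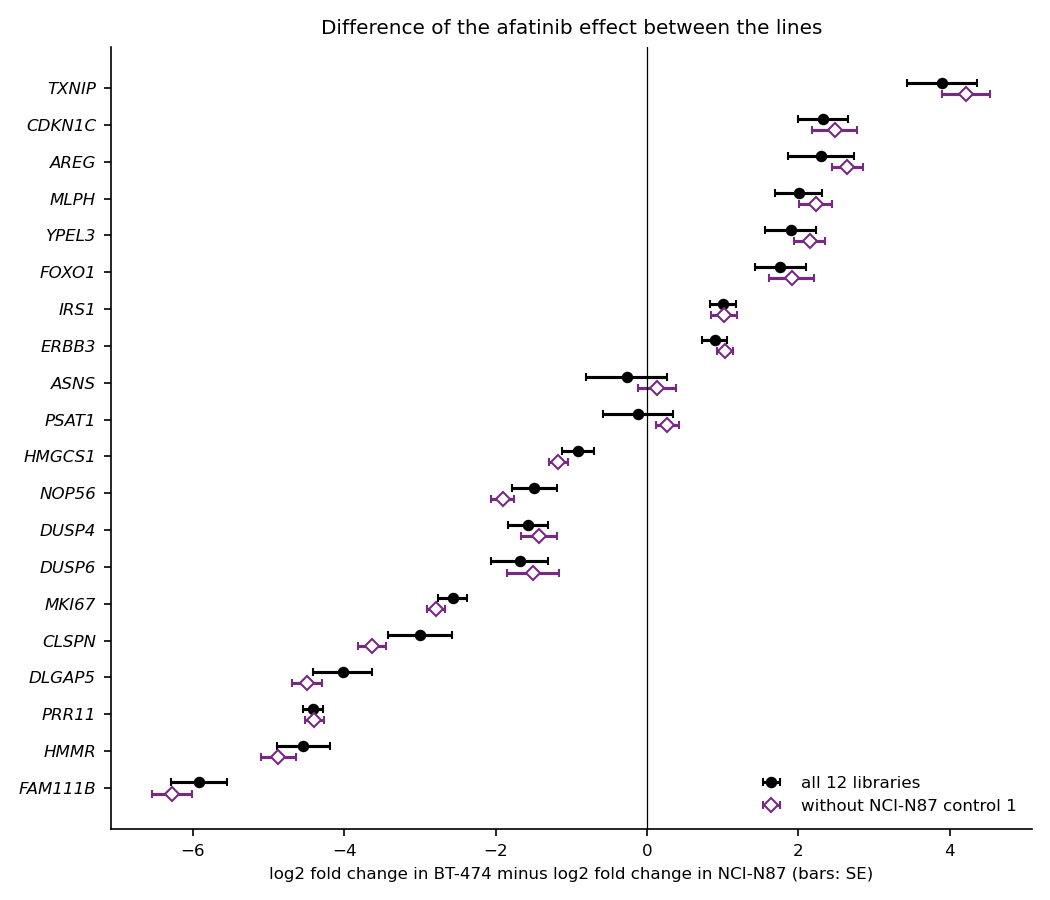
Difference of the afatinib log2 fold changes, BT-474 minus NCI-N87, of 20 genes named in the text, with its standard error, for all 12 libraries (filled circles) and without NCI-N87 control 1 (open diamonds). All keep their side of 0 except ASNS and PSAT1, whose differences pass the test in neither fit.

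Of the 12 most positive differences, 9 rest on 3 or fewer counts in a whole group. CDX2, a homeobox factor of intestinal cells, had 5.02, 3.13 and 3.12 CPM in BT-474 with afatinib (29, 18 and 19 counts) and 0 counts in all 3 controls. That makes it at least 29-fold higher, taking 3 counts over the control group as the floor. NCI-N87 cells had 161, 156 and 165 CPM with afatinib and 104, 112 and 150.5 CPM in controls. GCNT3, a mucin glycosyltransferase, had 10, 8 and 7 counts in BT-474 with afatinib and 0 in the controls, which is at least 11-fold higher. IGFBP6, OSBPL3, SLC17A9, SPINK1, VWA2 and WDR72 had 1 to 3 counts in the BT-474 control group and 27 to 116 in the afatinib group. The afatinib counts of IGFBP6 were 1, 70 and 45 by library and those of WDR72 were 23, 1 and 11, so replicates of one group also disagreed. ANKRD30A had 1 count in NCI-N87 with afatinib and 36 in its controls.

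Genes of other lines also had low levels in the BT-474 libraries. The 8 genes with at least 100 CPM in every NCI-N87 control and under 1 CPM in the median BT-474 control summed to 0.897, 0.810 and 0.468% of their NCI-N87 level in BT-474 with afatinib, against 0.240, 0.104 and 0.132% in BT-474 controls. The 14 such genes of SW48, a colorectal line of the series, summed to 0.706, 1.31 and 0.351% of their SW48 level with afatinib, against 0.125, 0.0661 and 0.566% in controls, so the SW48 shares overlapped between the groups while the NCI-N87 shares did not. The 4 such genes of the stomach line MKN-45 stood at 1.04, 0.989 and 0.775% of their MKN-45 level with afatinib, against 0.215, 0.146 and 0.234% in controls, and these groups did not overlap either. SPINK1 was the highest of the 4 in afatinib libraries 1 and 3, at 1.80 and 1.05%. The shares of BT-20 and SW620 genes overlapped between the groups. IGFBP6 reached 5.90% of its SW48 level in the third BT-474 afatinib library. CDX2 and SPINK1 in BT-474 with afatinib stood at 2.34 and 0.770% of their mean in NCI-N87 with afatinib. Because all these genes were picked for a low median in BT-474 controls, low shares in controls follow partly from the choice. CDX2 is among the 8 NCI-N87 genes and SPINK1 among the 4 MKN-45 genes, so these shares are not independent of the low-count genes above. The part of reads from other lines in these low-count differences was not tested. TXNIP, UCA1 and TCEA2 were the 3 of the top 12 with more than 3 counts in every group. At the negative end 2 of 12 had 3 or fewer counts in a group: ATP6V0E2, whose NCI-N87 counts all came from 1 afatinib library, and MARVELD1. Genes of lower mean level were not ranked, among them IFIT3, with a difference of -6.02 (SE 0.93).

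Some genes of tissue identity responded in BT-474. Of 20 tested luminal hormone receptor genes, 6 were called higher and 2 lower in BT-474 (against 12 and 11.2% of all genes). For the difference 1 went each way, which is 10% of the list, against 15.9% of all genes. Without control 1, 11 were higher and 3 lower in BT-474 (against 15.4 and 15.3% of all genes), and 4 were higher and 1 lower in NCI-N87 (11.6 and 10.9%). In that fit 3 differences were positive and 4 negative (35% of the list, against 28.8% of all genes). PGR, the progesterone receptor gene, had 673, 718 and 722 CPM in BT-474 with afatinib, against 262, 257 and 266 CPM in controls, with at most 0.187 CPM in any NCI-N87 library, so no difference between lines can be read. ESR1, the oestrogen receptor gene, had 41.9, 42.5 and 48.9 CPM in BT-474 with afatinib, against 24.2, 28.6 and 23.7 CPM in controls. FOXA1, the pioneer factor of luminal cells, went the other way, with 109, 117 and 120 CPM in BT-474 with afatinib, against 209.7, 208 and 206 CPM in controls. Its NCI-N87 levels were 14.3, 16.4 and 12.3 CPM with afatinib, against 12, 10.4 and 6.45 CPM in controls, and its difference was -1.46 (SE 0.23).

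Of 21 tested gut epithelial genes, 8 were called higher and 1 lower in BT-474 (against 12 and 11.2% of all genes), and 6 had a positive and 1 a negative difference (8.12 and 7.82%). These counts were the same without control 1, where 1 was also higher and 1 lower in NCI-N87 (9.52% of the list, against 22.5% of all genes). CEACAM5 and CEACAM6, neighbouring adhesion molecules of the same family, had opposite signs, with differences of 1.93 (SE 0.59) and -2.76 (SE 0.29). CEACAM6 had 3.12, 6.44 and 6.07 CPM in BT-474 with afatinib, against 24.6, 25.5 and 28.3 CPM in controls, and 153, 155 and 219.7 CPM in NCI-N87 with afatinib, against 131, 147 and 109.8 CPM in controls. The level of CEACAM5 in BT-474 was low, at 7.67 CPM with afatinib and 1.43 CPM in controls, where shares of reads typical of other lines also moved, as above. BMF, a BH3-only gene of apoptosis, had 21.1, 19.3 and 20.01 CPM in BT-474 with afatinib, against 8.94, 11.6 and 12.1 CPM in controls, and 7.36, 4.88 and 5.63 CPM in NCI-N87 with afatinib, against 5.06, 10.2 and 6.31 CPM in controls. Its difference was 1.18 (SE 0.34). BBC3, which encodes PUMA, also had a positive difference, 1.74 (SE 0.48). It was called in BT-474 in neither fit and lower in NCI-N87 without control 1 (-1.71 (SE 0.20)).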

How the data were processed

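The deposited table holds raw counts per gene symbol and library, whole numbers with no normalisation. Per the submitters' processing notes, the authors used Trimmomatic, STAR and featureCounts with genome build hg38; their versions, the annotation and the strand setting were not found in the labels. Per the labels' protocols, 500 ng of total RNA per sample went into 3′-end libraries (Lexogen QuantSeq). Of 33119 symbols, 23418 occur in the RefSeq table of GRCh38.p14, used for positions and promoters, and 26 had been turned into dates. Overlapping and antisense genes may share counts.

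Counts were tested with edgeR 4.0.16 in R 4.3.3 (filterByExpr with a minimum count of 10, TMM, glmQLFit with 1 mean per group over 12 libraries, two-sided quasi-likelihood tests, Benjamini-Hochberg over all tested genes, threshold 0.05). The contrasts were afatinib minus control in BT-474, the same in NCI-N87, and the first minus the second. A standard error is the log2 fold change divided by the square root of its F. DESeq2 1.42.0, other scalings and filters, and leaving out each library were alternatives. On simulated counts for 13613 genes the fit recovered, for the difference between lines, 47.4% of changes of 1 and 81.0% of changes of 2 log2 units. For BT-474 it recovered 61.9 and 92.0%. False calls were 3 for the difference, 11 for BT-474 and 0 for NCI-N87. Only BT-474 afatinib was changed, with 1 trend of the spread for all groups. The simulation therefore says nothing of recovery in NCI-N87, and it lacks the wider spread of the NCI-N87 controls. The contrasts of the 2 lines share no library, and both enter the difference.

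The comparison, the 26 gene lists and the fixed genes were chosen with earlier results of these data known. Named genes were those lists' called members with the largest differences or shared changes, the 12 highest and 12 lowest differences, the 12 highest and 12 lowest shared genes and 4 opposite genes each way (mean log2 CPM of at least 4, libraries not overlapping), and 31 fixed genes; some are left out for length or not reported here. PRR11, FAM111B and NUF2 come from the lowest differences. The shared and opposite genes were named from the fit without NCI-N87 control 1, a use of that fit chosen after seeing the data. PIK3IP1, IGF1R, SESN1, HBEGF, AURKB, PLK1, EBP, TM7SF2 and other list members were picked as examples after their values were seen. Same-numbered libraries of a line were not treated as pairs.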

Additional observations from a re-analysis of the deposited data

Results flagged for a closer look

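In 10 of the 31 genes fixed by name, the afatinib response differed between the 2 lines with all 12 libraries. The test was that of the difference itself, BT-474 minus NCI-N87, which called 15.9% of all genes. The fixed genes were chosen with earlier results of these data known, so their count is no independent result. Positive differences were 3.90 for TXNIP, 1.18 for BMF, 1.01 for IRS1 and 0.89 for ERBB3 on the log2 scale. Negative differences were -2.57 for MKI67, -1.68 for DUSP6, -1.53 for MCM2, -0.91 for HMGCS1, -0.79 for INSIG1 and -0.49 for CCND1. All 10 were also called in the same direction without NCI-N87 control 1.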

How the results depend on the processing

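Counts of called genes moved with several choices, and the cause was not tested. In the main fit the 4 groups share 1 estimate of the spread, so libraries of one line also enter the calls of the other. Genes higher and lower in BT-474 were 2673 and 2784 with each line fitted alone and 687 and 480 when a log2 change of 1 or more was also required. In NCI-N87 they were 1469 and 1554 with DESeq2 without control 1, 222 and 358 with DESeq2, 725 and 702 with all groups of the second set in 1 fit, 110 and 269 without a filter and 2 and 3 with robust dispersions. For the difference they were 1919 and 1951 with DESeq2 without control 1 and 634 and 530 at a log2 difference of at least 1, and 1812 were lower with all groups in 1 fit. Genes higher in both lines, lower in both and opposite were 148, 316 and 799 with DESeq2 without control 1, 19, 71 and 82 with DESeq2, 57, 153 and 323 with all groups in 1 fit, 6, 56 and 46 without a filter, and 1 was lower in both with robust dispersions. Leaving out 1 library at a time gave 980 to 2213 higher and 1129 to 2200 lower genes in BT-474, 0 to 1667 and 0 to 1560 in NCI-N87, and 700 to 2000 and 739 to 2142 for the difference. It gave 0 to 177 higher in both, 0 to 303 lower in both and 0 to 877 opposite, and each upper end came from leaving out NCI-N87 control 1. Genes with a higher difference fell below the 1133 by over 1.5 times without BT-474 afatinib 1 (700) or 2 (711), BT-474 control 1 (733), 2 (735) or 3 (721), or NCI-N87 control 2 (703). Genes higher in BT-474 did so without BT-474 afatinib 1 (1033) or 2 (1045) or control 1 (1027), 2 (1063) or 3 (980). CCND2 reversed: its difference was 0.05 with all libraries and -5.92 with DESeq2 without control 1, and it ran from -6.19 without control 1 to 0.71 without control 2 when 1 library was left out. Libraries with the same replicate number did not deviate together (correlations of -0.0613, 0.0225 and -0.0559 in BT-474 and -0.194, 0.119 and -0.146 in NCI-N87). With the number as a replicate block, 1285 and 1316 genes were called in BT-474, 1 and 0 in NCI-N87, 707 and 833 for the difference, and 1 opposite.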

Other observations

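The neighbours of ERBB2 on 17q12 included genes that responded in BT-474 while ERBB2 did not pass the test. Of 17 tested, 6 were called higher in BT-474 (against 12% of all genes) and 5 had a positive difference (8.12%). Without control 1, 9 were higher in BT-474 (against 15.4% of all genes) and 10 had a positive difference (13.9%). In NCI-N87 2 were then higher and 3 lower (11.6 and 10.9%). GSDMB, a gasdermin, had 161, 153 and 143 CPM in BT-474 with afatinib, against 68.6, 68.5 and 62.4 CPM in controls, and 77.1, 72.7 and 93.1 CPM in NCI-N87 with afatinib, against 61.6, 96.2 and 85.3 CPM in controls. Its difference was 1.21 (SE 0.20). Of 12 tested Notch genes 4 were higher in BT-474 and 3 had a positive difference, in both fits. In BT-474 33.3% of the list was called with all libraries, against 23.2% of all genes. Without control 1, where 1 was also lower, it was 41.7%, against 30.7%. For the difference it was 25% in both fits, against 15.9% of all genes with all libraries and 28.8% without control 1. Among the 3 was MAML2, a coactivator, with a difference of 2.62 (SE 0.29) and 2.58 (SE 0.29) without control 1. KRT15, a basal keratin, had 111, 107 and 110 CPM in BT-474 with afatinib, against 40.5, 39.9 and 37.6 CPM in controls, and a difference of 1.52 (SE 0.14), while KRT7 was called lower in both lines without control 1, by -1.01 (SE 0.12) and -0.88 (SE 0.13).

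Of 25 tested lysosome and autophagy genes, 3 were higher and 1 lower in BT-474 and 4 had a positive difference. That is 16% called in both cases, against 23.2% of all genes in BT-474 and 15.9% for the difference, so the list was not above all genes. GABARAPL1, an autophagosome protein, had a difference of 1.30 (SE 0.27). Without control 1, 6 were higher and 1 lower in BT-474, which is 28% of the list, against 30.7% of all genes. In NCI-N87 9 were then lower (against 10.9% of all genes), and 10 genes of the list had a positive difference (13.9%). Among 13 antigen presentation genes, 4 had a positive and 1 a negative difference (38.5% of the list, against 15.9% of all genes). Without control 1 it was 5 and 1 (46.2%, against 28.8%). Among 24 interferon-stimulated genes, 2 had a positive and 2 a negative difference, which is 16.7% of the list, against 15.9% of all genes. Without control 1 it was 3 each way (25%, against 28.8%). STAT2, a signal transducer, had a difference of 1.32 (SE 0.22). IFIT3 had 0 counts in all BT-474 afatinib libraries, against 1.44, 1.11 and 1.09 CPM in controls. BMP7, a growth factor, differed by -1.77 (SE 0.24). Of 17 p53 targets 2 had a positive and 2 a negative difference (23.5% of the list, against 15.9% of all genes). Without control 1 it was 4 and 3 (41.2%, against 28.8%). Of 26 ribosomal protein genes 3 had a positive difference (11.5% of the list, against 15.9% of all genes called). Without control 1, 12 had a positive and 1 a negative one (50%, against 28.8%).

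The remaining lists had few calls or calls in both directions with all 12 libraries, where 23.2% of all genes were called in BT-474 and 15.9% for the difference (30.7 and 28.8% without control 1). Of 16 tested keratin and squamous genes, 3 were higher and 5 lower in BT-474, and 3 differences were positive and 2 negative, or 5 and 3 without control 1. Of 16 ID factor and TGF-beta feedback genes, 3 were higher and 4 lower in BT-474, and 2 differences went each way, as they did without control 1. Of 16 BCL2 family genes, 3 were higher in BT-474 and 3 had a positive difference, which is 18.8% of the list each time, against 23.2 and 15.9% of all genes. Without control 1, 6 had a positive difference (against 13.9% of all genes) and 6 were lower in NCI-N87 (10.9%). In BT-474, 4 p53 targets were higher and 2 lower, 2 interferon-stimulated genes were higher and 3 lower, 2 antigen presentation genes went each way, and 1 ribosomal protein gene was higher. Of 11 mesenchymal genes, 2 were higher in BT-474 and 1 had a positive difference, in both fits. Only 1 leukocyte gene, LYZ, was tested, and it was called higher in BT-474, while neither of 2 tested endothelial genes was called.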
